A study of Mus musculus with 8 samples.

Results

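The Frizzled genes Fzd1 to Fzd10 encode the receptors for Wnt ligands, and they were taken by symbol from a RefSeq table of the mm10 build, 10 of 21887 protein-coding genes on chromosomes 1 to 19, X and Y. The data are positions bound by ZFP281, a zinc finger transcription factor, found by chromatin immunoprecipitation and sequencing in spheres of MMTV-HER2/Neu mice on the FvB background, a strain whose mouse mammary tumour virus promoter drives the Neu oncogene mainly in mammary epithelium. The primary tumour (PT) group had spheres from mice older than 20 weeks that carried a primary tumour. The early lesion (EL) group had spheres from mice of 14 to 18 weeks with no palpable tumour. Both were grown for 7 days in mammosphere medium without attachment, and each had 3 ZFP281 libraries and 1 input, which was not analysed here. The tissue label is breast tumor for PT and mammary lung for EL, so the source of the EL cells is not clear from it, and the labels do not say which animals or how many went into a culture. Each library is a list of summits, single positions with a score, and read depth is unknown. PT lists were shorter, with at most 6033 summits, than EL lists, with 7055 to 15770. Every count was therefore also made on as many top-scoring summits of each list as the shortest, that of PT replicate 1, holds, called equal list lengths here.

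Frizzled proteins span the membrane and bind Wnt ligands through a cysteine-rich domain outside the cell. With the co-receptors LRP5 and LRP6 they pass the signal to Dishevelled and beta-catenin, or, with other co-receptors, to pathways of cell polarity and movement. In the mammary gland Wnt signals are known for keeping basal stem cells, and Fzd7 is known as a receptor of those cells. By sequence the family falls into the groups Fzd1, Fzd2 and Fzd7; Fzd5 and Fzd8; Fzd4, Fzd9 and Fzd10; and Fzd3 and Fzd6. A summit was assigned to a gene when it lay in the gene or within 20 kb of either end. Binding near a gene does not show whether the gene was transcribed.

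The promoter of Fzd7 is shown because every library had a summit in it, and that of Fzd10 because it held the same motif and no summit. ZFP281 is known to bind G-rich DNA, and the letters GGGGGAGGG were searched on both strands of RefSeq promoter windows (GRCm38.p6, 250 bases before to 50 after a gene start). A window was in the table used here for 6 of the 10 genes, namely Fzd1, Fzd4, Fzd5, Fzd7, Fzd9 and Fzd10. The motif was found once in the Fzd7 window and once in the Fzd10 window, and in none of the other 4. The 250 bases before each start are printed 5′ to 3′ on the strand of the gene, with the match in capitals, for Fzd7 from chr1:59481897-59482146 (+ strand) and for Fzd10 from chr5:128600856-128601105 (+ strand), where the match lies on the opposite strand and so reads CCCTCCCCC.
Fzd7: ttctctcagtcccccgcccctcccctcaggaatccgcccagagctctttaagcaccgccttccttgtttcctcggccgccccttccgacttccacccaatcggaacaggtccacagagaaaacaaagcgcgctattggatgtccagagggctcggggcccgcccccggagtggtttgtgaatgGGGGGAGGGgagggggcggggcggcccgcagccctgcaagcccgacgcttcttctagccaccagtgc
Fzd10: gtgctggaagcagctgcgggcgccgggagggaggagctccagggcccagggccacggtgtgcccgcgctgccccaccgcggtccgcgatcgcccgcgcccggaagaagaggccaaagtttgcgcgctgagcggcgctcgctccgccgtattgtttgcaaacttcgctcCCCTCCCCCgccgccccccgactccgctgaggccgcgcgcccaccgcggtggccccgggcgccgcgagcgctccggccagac

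Fzd7 was bound at its promoter in all PT and all EL libraries. The summits lay 61, 77 and 80 bp upstream of the start in PT replicates 1, 2 and 3, and 73, 82 and 103 bp upstream in EL replicates 1, 2 and 3. All 6 thus fell within 43 bp (chromosome 1, 59482044 to 59482086), and the PT and EL positions overlapped. The motif match occupies bases 67 to 59 upstream of the start (59482080 to 59482088). The summit lay inside it in PT replicate 1 and 10 and 13 bp upstream of it in PT replicates 2 and 3, and 6, 15 and 36 bp upstream of it in EL replicates 1, 2 and 3. Regions found in all 6 libraries, made by joining summits at most 200 bp apart, had a median length of 100 bp, and 91.9% of these 1573 regions were longer than the one at Fzd7.

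**Figure D1:**
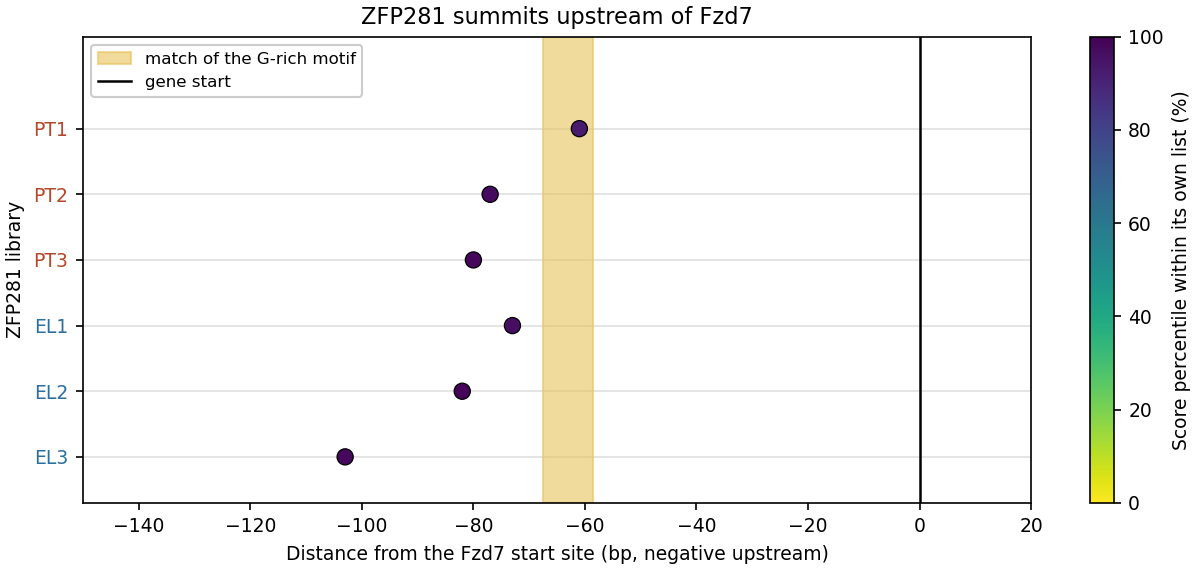
Position of the ZFP281 summit nearest to the Fzd7 start in each library (points, coloured by score percentile within their own list); the horizontal axis is the distance from the start in bp, the band marks the motif match and the vertical line the start. The 3 PT summits lie 61 to 80 bp upstream and the 3 EL summits 73 to 103 bp upstream.

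The Fzd7 summit was among the highest scoring of every list. Its deposited scores were 34.7, 47.9 and 73.3 in PT replicates 1, 2 and 3, and 50.1, 117 and 55.7 in EL replicates 1, 2 and 3. These scores are the authors' own and rank summits within a list only. Ordered by score, the summit stood at place 212, 120 and 111 in the PT lists and at place 286, 159 and 139 in the EL lists, so the places of the groups overlapped. The mean place was 148 ± 55.9 in PT and 195 ± 79.7 in EL (SD, n = 3 each), a difference of -47 places, PT minus EL (exact permutation test, two-sided, p = 0.5). Of the 996 regions that all 6 lists held at equal list lengths, 18.0% stood further down the list in every PT than in every EL library, and the region at Fzd7 was not one of them. The percentile of a summit is the share of its list that scores no higher. In full lists the lowest of the 6 percentiles at Fzd7 was 92.6, in PT replicate 1. Among the 1573 regions of all 6 libraries 7.63% had a higher lowest percentile. The other Fzd7 summits were low in their lists, at 915 bp inside the gene in PT replicate 3 (percentile 3.61) and 9164 bp upstream of the start in EL replicate 2 (percentile 31.4).

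The other Frizzled promoter with a motif match had no summit. The Fzd10 window held a match 82 to 74 bases upstream of the start, and the nearest summit of any library to Fzd10 was 42.8 kb away. G and C made up 66.7% of the Fzd7 window, 77.7% of Fzd10, 78% of Fzd9, 75.7% of Fzd5, 72.7% of Fzd4 and 54% of Fzd1, so the bound window was not the richest of the 6. Across all 32851 RefSeq windows 5.16% held the motif. Among the 303 windows with a summit inside in all 6 libraries 66.3% did, against 3.05% of the 30320 windows with none. The median share of G and C was 67.3% and 52.0% in these classes, and the part of base composition in the motif shares was not tested. A gene can have several windows, so windows are not independent.

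Fzd2 was the Frizzled gene with the most summits, with fewer in each PT list than in any EL list. The protein is a receptor of the same group as Fzd7 and is known for signals of Wnt5a. The number of summits was 2, 1 and 1 in PT replicates 1, 2 and 3, and 4, 3 and 3 in EL replicates 1, 2 and 3. The means were 1.33 ± 0.577 in PT and 3.33 ± 0.577 in EL (SD, n = 3 each), a difference of -2 summits (exact permutation test, two-sided, p = 0.1, the smallest that 3 against 3 libraries allow; adjusted p = 1 over 21887 genes). Within 1 kb of a gene boundary the difference was -0.667 (exact permutation test, p = 0.4) and within 50 kb -3.33. The same order, a lower number in every PT than in every EL library, was seen for 9.26% of all protein-coding genes, and for 1 of the 10 Frizzled genes. The opposite order was seen for 0.274% of all genes and for no Frizzled gene. At equal list lengths Fzd2 had 2, 1 and 1 summits in PT and 3, 2 and 3 in EL, so PT replicate 1 and EL replicate 2 were level (exact permutation test, p = 0.2). The cut removed an EL replicate 2 summit at place 4018 of its list, while PT replicate 1 kept its whole list. No Frizzled gene then had groups that did not overlap, while 2.12% of all genes were lower and 1.83% higher in every PT library.

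Before the lower end of Fzd2 (the end with the smaller coordinate, chromosome 11, 102604431 to 102608058) every library held a summit. The summits lay 725, 638 and 747 bp before it in PT replicates 1, 2 and 3, and 1041, 436 and 620 bp before it in EL replicates 1, 2 and 3. They covered 606 bp, a looser cluster than at Fzd7. Their places by score were 2789, 1748 and 1495 in the PT lists and 1397, 1752 and 824 in the EL lists. PT replicate 2 and EL replicate 2 stood next to each other, so the groups overlapped, and the mean places of 2011 ± 686 in PT and 1324 ± 468 in EL (SD, n = 3 each) differed by 686 (exact permutation test, two-sided, p = 0.3). With summits joined at 200 bp this cluster split, since the summit of EL replicate 1 lay 294 bp from the next. EL replicate 1 held 1 more summit 174 bp inside the gene, low in its list at percentile 13.2.

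A position past the upper end of Fzd2 was high in the EL lists, while PT had a single low summit near it. The EL summits lay 16267, 16307 and 16225 bp past that end in replicates 1, 2 and 3, within 83 bp of each other (chromosome 11, 102624283 to 102624365). Their places were 467, 568 and 263, with percentiles of 94.6, 96.4 and 96.2 in the full lists. PT replicates 2 and 3 listed no summit there. PT replicate 1 listed a summit at 15992 bp, 233 bp from the nearest EL summit, at place 2515 and percentile 12.5. By its lowest percentile the EL region stood 8th of the 1937 regions found in all EL and no PT library when joined at 200 bp. Joined at 500 bp, it included the summit of PT replicate 1 and left that class. No other protein-coding gene lies within 20 kb of Fzd2; the next are Gpatch8, 48.0 kb below, and Meioc, 57.3 kb above, so Fzd2 was the nearest gene.

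A further position, inside Fzd2, was listed in the EL libraries alone. The summits lay 1031, 887 and 995 bp before the upper end in EL replicates 1, 2 and 3 (102607027 to 102607171), at places 2848, 4018 and 1351, and no PT list had a summit inside the gene. EL replicates 1 and 3 kept it at equal list lengths and EL replicate 2 did not. By lowest percentile it stood 320th of the 1937 EL regions.

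**Figure D2:**
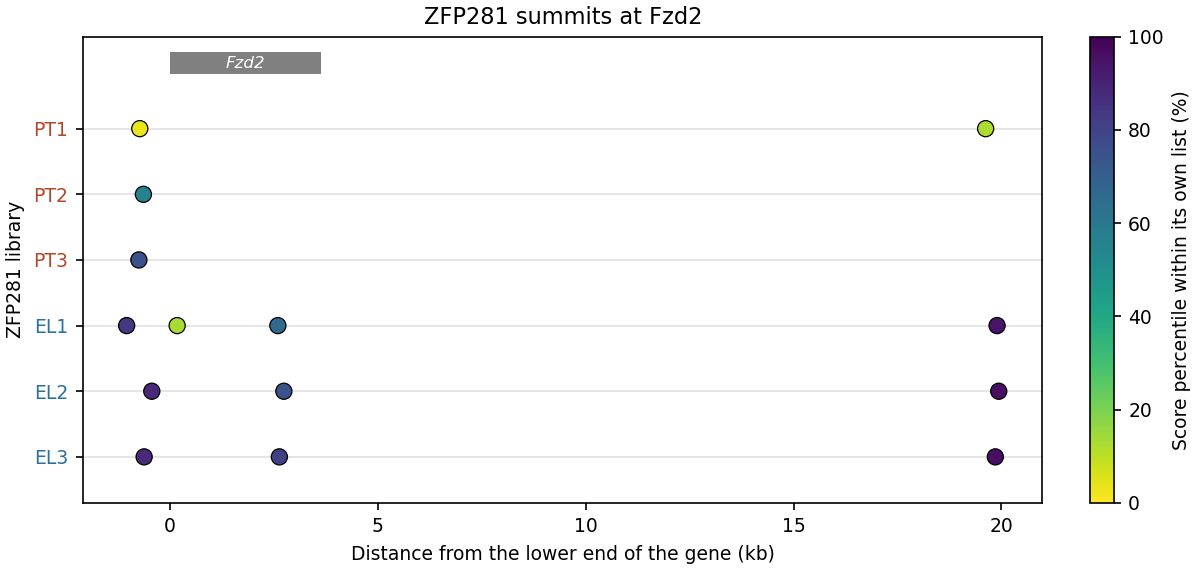
ZFP281 summits at Fzd2 in each library (points, coloured by score percentile within their own list); the horizontal axis is the distance from the lower end of the gene in kb, and the grey bar is the gene. The summits before the gene occur in all 6 libraries, those inside it in EL alone, and those near 20 kb in PT1 (percentile 12.5) and in the 3 EL libraries (percentiles 94.6 to 96.4).

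The best summit of Fzd2 was placed lower in PT, but it was not the same position in every library. In the EL libraries it was the position past the upper end, and in PT replicate 1 the summit 15992 bp past that end. In PT replicates 2 and 3 it was the summit before the lower end, where the places of the groups overlapped. At equal list lengths the highest percentile at Fzd2 was 12.5, 39.5 and 48.4 in PT replicates 1, 2 and 3, and 83.9, 80.3 and 90.8 in EL replicates 1, 2 and 3. The groups did not overlap, with means of 33.5 ± 18.7 in PT and 85.0 ± 5.33 in EL (SD, n = 3 each), a difference of -51.5 points (exact permutation test, two-sided, p = 0.1; adjusted p = 1 over all genes). This order was seen for 4.61% of all protein-coding genes, and in full lists for 15.9%. In full lists the difference at Fzd2 was -47.6 points, and without PT replicate 1 it was -29.9. For Fzd7 the percentiles at equal list lengths were 92.6, 95.8 and 96.2 in PT and 90.1, 94.5 and 95.2 in EL, which overlapped (difference 1.59 points, exact permutation test, p = 0.5).

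With lists of equal length, more of the listed stromal markers had a summit in EL and more of the listed epithelial and leukocyte markers in PT. The leukocyte difference rested on Cd4 and Cd79a, and the epithelial difference on Cdh1 and Krt18. In full lists Cdh1 and Krt18 had a summit in all 6 libraries. Of 12 fibroblast and adipocyte markers, 1, 2 and 5 had a summit within reach in PT replicates 1, 2 and 3, and 9, 10 and 8 in EL replicates 1, 2 and 3, with Fap and Lum at 0 in every list. In full lists the share of all genes also differed, at 16.7% to 29.0% in PT and 30.7% to 48.4% in EL. Cut to equal length, where that share was 16.7% to 16.9% in PT and 16.9% to 17.6% in EL, these stromal markers numbered 1, 1 and 1 in PT and 6, 8 and 7 in EL. Of 8 mammary epithelial markers the numbers were 4, 5 and 5 in PT and 4, 5 and 4 in EL, with Epcam, Krt5 and Krt14 at 0, and in lists of equal length 4, 4 and 4 in PT and 2, 3 and 2 in EL. Of 10 leukocyte markers they were 3, 3 and 3 in PT and 3, 4 and 2 in EL, with Ptprc and Cd3e among those at 0, and in lists of equal length 3, 3 and 3 in PT and 1, 1 and 1 in EL. By summit number in full lists, Cd68 had 1, 1 and 2 in PT and 3, 3 and 3 in EL. Cd4 had 1, 1 and 1 in PT and 3, 5 and 1 in EL, and Cd79a 1, 1 and 1 in PT and 1, 2 and 0 in EL. Of 5 endothelial markers the numbers with a summit were 0, 1 and 2 in PT and 2, 3 and 1 in EL, with Cdh5 and Tek at 0, and in lists of equal length 0, 1 and 1 in PT and 1, 1 and 1 in EL. A bound marker is not an expressed one, so these numbers do not check the cell labels. The part of the mix of cells in the Fzd2 values was not tested.

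The third member of that sequence group, Fzd1, had no summit. It lies on chromosome 5 from 4753839 to 4758216, and its nearest summits were 64.7 to 64.8 kb away in the PT lists and 488 to 585 kb away in the EL lists.

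Of Fzd4, Fzd9 and Fzd10, Fzd4 was bound most often. Fzd4 is the receptor of Norrin and is known from blood vessels of the retina. Its number of summits was 0, 0 and 1 in PT replicates 1, 2 and 3, and 1, 3 and 1 in EL replicates 1, 2 and 3. PT replicate 3 was level with EL replicates 1 and 3, so the groups overlapped, and the means of 0.333 ± 0.577 in PT and 1.67 ± 1.15 in EL (SD, n = 3 each) differed by -1.33 (exact permutation test, two-sided, p = 0.3). A single region inside the gene held the summit of PT replicate 3, 698 bp after the start, and those of EL replicates 1, 2 and 3, 720, 680 and 552 bp after the start (chromosome 7, 89404918 to 89405086). Within their lists these summits reached percentile 34.0 in PT replicate 3, and 60.3, 75.6 and 33.3 in the EL replicates in the same order, and no Fzd4 summit was left at equal list lengths. The first 338 bp of Fzd4 overlap Tmem135, whose end lies 215 bp from this region, so the summits are close to the ends of both genes. Both further summits assigned to Fzd4 came from EL replicate 2, the longest list. The summit 663 bp upstream of the Fzd4 start lay inside Tmem135.

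Fzd9, known in mice from bone formation and B cells, had 1 summit, in EL replicate 2, and Fzd10 had none. The Fzd9 summit lay inside the gene, 1862 bp after the start and 247 bp from its other end (chromosome 5, 135249185), at percentile 49.9. The next gene, Baz1b, lies 2807 bp away.

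In the group of Fzd5 and Fzd8 binding was sparse. Fzd5, a receptor known from Paneth cells of the intestine, had 1 summit in PT replicate 3 and 1 in EL replicate 2, the longest list of each group, at 1299 and 1214 bp upstream of the start (chromosome 1, 64738964 to 64739049). Their percentiles were 31.9 in PT replicate 3 and 34.2 in EL replicate 2, and neither was left at equal list lengths. Fzd8 had 1 summit, in EL replicate 1, 125 bp before the lower end of the gene (chromosome 18, 9212731), with a percentile of 45.5. The other 5 lists held none within 20 kb of it.

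Fzd3 and Fzd6, known for planar polarity and the patterning of axons and hair, had no summit in any list. The nearest summits to Fzd3 lay 65.3 to 69.5 kb away in PT and 52.0 to 69.5 kb away in EL, although its window of 110023 bp, around a gene of 70023 bp, was the longest of the 10. For Fzd6 the nearest lay 67.7 kb away in PT replicate 3 and 39.5 kb away in EL replicate 2.

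**Figure D3:**
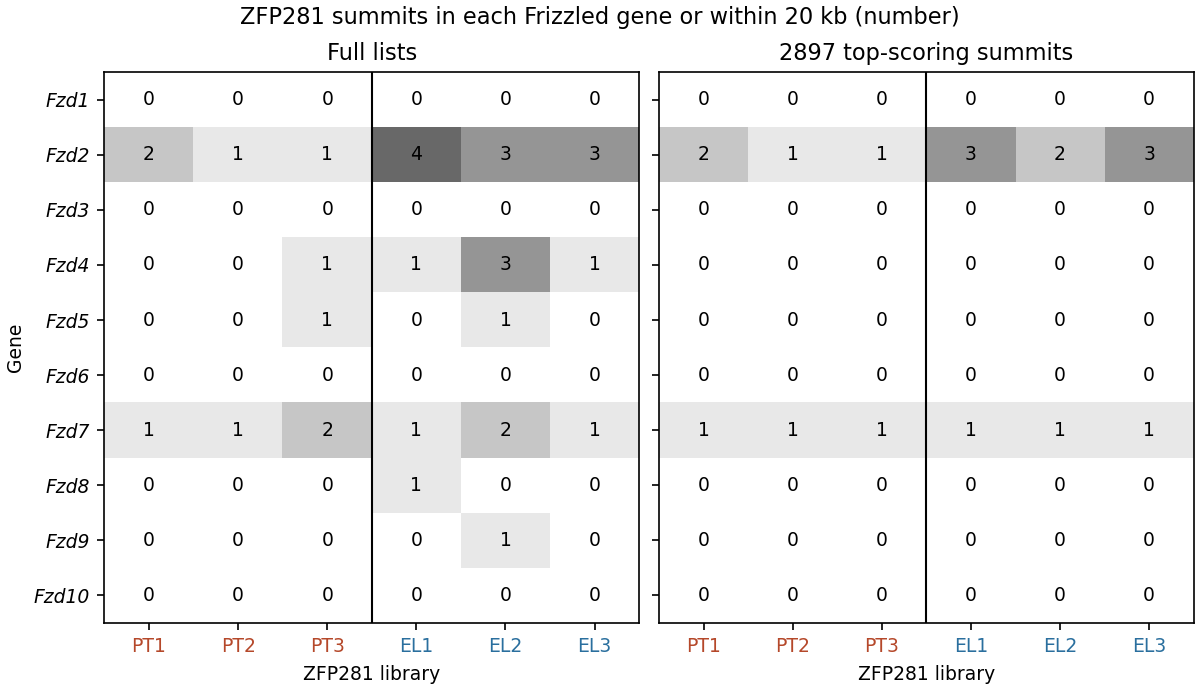
Number of ZFP281 summits in each Frizzled gene or within 20 kb of it (rows) in each library (columns; PT left of the line, EL right), for full lists (left) and for equal list lengths (right, top-scoring summits). Fzd2 and Fzd7 carry summits in all 6 libraries in both panels, and they are the only rows above 0 at equal list lengths.

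The share of Frizzled genes with a summit was close to that of all genes. Members with a summit numbered 2, 2 and 4 in PT replicates 1, 2 and 3, and 4, 5 and 3 in EL replicates 1, 2 and 3, with means of 2.67 ± 1.15 in PT and 4 ± 1 in EL (SD, n = 3 each). PT replicate 3 was level with EL replicate 1 and above EL replicate 3. Of the Frizzled genes 20% to 40% had a summit in a PT list and 30% to 50% in an EL list, and of all 21887 genes 16.7% to 29.0% in PT and 30.7% to 48.4% in EL. In full lists Fzd2 and Fzd7, 2 of 10, had a summit in all 6 libraries, beside 13.0% of all genes, and Fzd1, Fzd3, Fzd6 and Fzd10, 4 of 10, had none in any, beside 48.6%. No Frizzled gene had a summit in all EL and no PT library, a pattern of 5.19% of all genes. At equal list lengths the same 2 genes were found in all 6 libraries (8.76% of all genes), the other 8 in none (72.1%), and no member in all EL and no PT library (1.64%). Frizzled windows had a median length of 44.6 kb and those of all genes 57.2 kb, and these shares were not adjusted for length.

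Summed over the family, PT lists held 3, 2 and 5 summits in replicates 1, 2 and 3, and EL lists 7, 10 and 5. Set against list length the groups overlapped, at 1.04, 0.496 and 0.829 per 1000 listed summits in PT and 0.815, 0.634 and 0.709 in EL. The 95% exact binomial intervals, which cover counting error only, ran from 0.0601 to 3.02 over the PT lists and from 0.230 to 1.68 over the EL lists. At equal list lengths the sums were 3, 2 and 2 in PT and 4, 3 and 4 in EL, and every extra EL summit was at Fzd2.

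**Figure D4:**
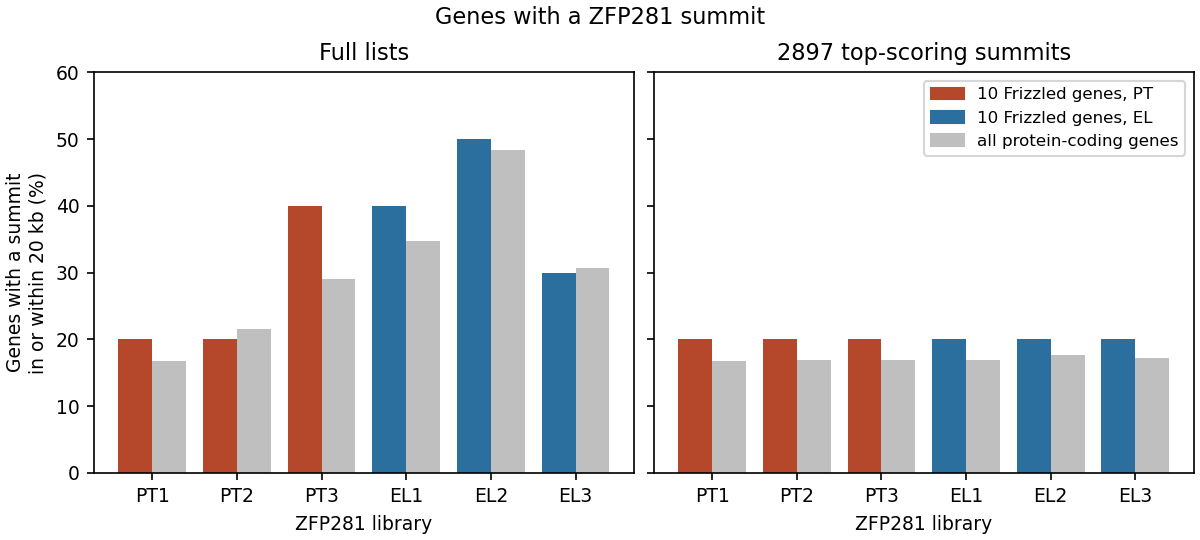
Percent of the 10 Frizzled genes (coloured bars) and of all protein-coding genes (grey bars) with a ZFP281 summit in the gene or within 20 kb, by library, for full lists (left) and for equal list lengths (right, top-scoring summits). In full lists the Frizzled share is 20% to 40% in PT and 30% to 50% in EL, and at equal list lengths the Frizzled share is 20% in each library.

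Genes elsewhere in the genome had almost the same profile of percentiles as Fzd2 and Fzd7. Over the 6 libraries, the genes on other chromosomes nearest to Fzd2 by mean absolute difference of the highest percentile were Pkdcc (3.05 points), Actb (3.82) and Bmf (4.54). Pkdcc had percentiles of 5.75, 55.6 and 72.0 in PT replicates 1, 2 and 3, and 95.4, 95.1 and 91.0 in EL replicates 1, 2 and 3. Nearest to Fzd7 were Prkaca, Samd1 and 1700067K01Rik, neighbours on chromosome 8 with the same values, at 0.492 points each. The 6 values of a gene share the libraries, so this is a description of likeness.

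Across the other Wnt pathway genes the pattern of Fzd2 was also seen, and none showed the opposite in full lists (beside 0.274% of all genes). Of 66 genes listed by role, 9 had a summit in all 6 libraries (13.6%, beside 13.0% of all genes). A lower number in every PT than in every EL library was seen for 11 of the 66 (16.7%, beside 9.26%). A gene without a summit cannot show this order. Among genes with a summit in any library, it held for 11 of 52 Wnt pathway genes and 2026 of all 11259. With lists of equal length 4 genes were lower in every PT library (Ptk7, Ror2, Dvl1 and Adgra2) and 1 was higher (Wnt5b), beside 2.12% of all genes lower and 1.83% higher; Ror2 and Dvl1 are named here after their values were seen. The median difference over the 66 genes was -0.667 summits and over all protein-coding genes 0, and the medians cannot be set against each other, since 48.6% of all genes but 14 of the 66 had no summit in any library.

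Of 6 Wnt co-receptor genes 4 had a summit in all 6 libraries in full lists (beside 13.0% of all genes), and 1 at equal list lengths (beside 8.76%). Ptk7, a co-receptor of polarity signals, had 1, 2 and 5 summits in PT replicates 1, 2 and 3, and 6, 7 and 5 in EL replicates 1, 2 and 3. Ror1, a receptor tyrosine kinase for Wnt5a, had 1, 1 and 1 in PT and 6, 8 and 3 in EL, and at equal list lengths 1, 1 and 1 in PT and 0, 1 and 0 in EL. These genes differ in length, and longer genes have longer windows.

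Among the ligands 14 of 19 had a summit in at least 1 library (beside 11259 of all 21887 genes). In all 6 libraries 1 of 19, Wnt5b, had one (beside 13.0% of all genes). Wnt5b had 2, 3 and 2 summits in PT and 2, 5 and 2 in EL, and at equal list lengths 2, 3 and 1 in PT and 0, 0 and 0 in EL. Wnt9a had 0, 1 and 1 in PT and 2, 3 and 2 in EL. Of 10 cytoplasmic components 3 were bound in all 6 libraries in full lists (beside 13.0% of all genes) and 3 at equal list lengths (beside 8.76%). In full lists 3 were lower in every PT library (beside 9.26% of all genes, or 2026 of the 11259 with a summit). At equal list lengths 1 was (beside 2.12%). Dvl2, a Dishevelled gene that acts directly below Frizzled, had 1, 3 and 4 summits in PT and 3, 6 and 4 in EL, and Gsk3b, a kinase of the beta-catenin destruction complex, 2, 1 and 2 in PT and 2, 3 and 2 in EL.

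Of 9 genes of receptor turnover 7 had a summit in at least 1 library, and of 11 secreted inhibitors 6. Of 6 Frizzled partners 5 had one, and of all 21887 genes 11259. No gene of these roles had one in all 6 libraries, beside 13.0% of all genes. Znrf3, a ubiquitin ligase that removes Frizzled from the surface, had 0, 1 and 1 in PT and 1, 4 and 0 in EL. Lgr5, a receptor of R-spondins and a stem cell marker, had none in PT and 1, 3 and 1 in EL. Notum, an enzyme that inactivates Wnt ligands, had 0, 0 and 2 in PT and 1, 3 and 1 in EL, and Dkk3 had none in PT and 1 in each EL list. Tspan12, a partner of Fzd4 in Norrin signalling, had 1, 0 and 1 in PT and 0, 1 and 1 in EL, and Adgra2 none in PT and 1, 3 and 2 in EL. A summit in all EL and no PT library, as at Lgr5, Dkk3 and Adgra2, was seen for 5.19% of all genes. At equal list lengths Lgr5 and Dkk3 kept a summit in EL replicate 3 alone. Adgra2 then had 1 in each EL list and none in PT, an order of 1.64% of all genes. Of the 4 transcription factor genes Tcf7l2 was bound in all 6 libraries, with 1, 2 and 3 in PT and 1, 7 and 1 in EL, and Lef1 had 0, 1 and 1 in PT and 2, 1 and 1 in EL. Smo, the relative of Frizzled that serves Hedgehog signals, had 0, 1 and 0 in PT and 1, 2 and 1 in EL.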

How the data were processed

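ZFP281 chromatin immunoprecipitation libraries of PT and EL spheres (3 each, labelled biological replicates) were read as the summit lists the authors deposited. Reads were paired-end, 150 bp, per the labels' protocols, and were aligned to mm10 with Bowtie2 2.3.4.3 and processed with Picard, per the submitters' processing notes. No source used here names the peak caller, its use of the inputs or any filter on the lists. The score deposited by the authors was read from its values as −log10 of a q-value. The lowest scores of the lists ran from 1.30 to 1.55, and none was under 1.30, the value for 0.05. Each list comes from 1 library, and read depth is unknown.

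Positions were counted from 1, and summits outside chromosomes 1 to 19, X and Y were left out. Gene ends came from a RefSeq table of the same build. Summits were counted per gene within 20 kb, in full lists and at equal list lengths, and the percentile is the share of its list that scores no higher than a summit (ties averaged, 0 for a gene without a summit). Groups were compared for every gene with an exact permutation test (two-sided, 20 relabellings, smallest p 0.1) and p-values were adjusted over 21887 genes by the Benjamini-Hochberg method. No gene had an unadjusted p under 0.05. The counting and the test were checked on simulated data. The software was python 3.11.15, numpy 2.4.6, pandas 2.3.3 and scipy 1.17.1. Since the labels do not name the animals, p-values measure only the spread between these libraries.

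All 10 Frizzled genes are described, with each region held by at least 4 libraries or by all 3 of a group. Genes most like the 2 members with the most summits were taken by mean absolute difference of percentiles, and up to 2 Wnt genes per role by libraries and then summits. The members and lists were chosen with earlier results of these data known. Alternatives were other windows, nearest gene assignment, score minimums, merging distances, equal list lengths, a replicate block and leaving out each library. Same-numbered PT and EL libraries did not deviate together, with correlations of 0.09, -0.06 and -0.25.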

Additional observations from a re-analysis of the deposited data

How the results depend on the processing

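The difference between PT and EL in Frizzled summits depended on list length. At equal list lengths the mean number of members with a summit differed by 0 (-1.33 in full lists), summits per library by -1.33 (-4 in full lists, -6.67 within 50 kb), and 6 regions were left of 15. Summits per 1000 listed, 0.0676 higher in PT in full lists, differed by -0.164 in gene bodies alone, -0.206 and -0.271 with scores of at least 5 and 10, -0.460 at equal list lengths, and -0.0568 to 0.213 with 1 library left out. Genes whose numbers did not overlap, 2086 in full lists, came to 463 within 1 kb of a gene boundary, 1037 in gene bodies, 1202 with scores of at least 10, 1366 by nearest gene and 863 at equal list lengths, where 463 were lower and 400 higher in PT. With 1 library left out they came to 2212 to 3434, the most without EL replicate 3, and to 2344 with replicate numbers as a block. These last counts could not fall below 2086, since groups that do not overlap stay so with fewer libraries or within replicate numbers. Fzd2 summits were fewer in PT in 15 of 15 alternatives. Leaving out a library or using the block could not change this sign, since every PT number was below every EL number in full lists. The other alternatives recounted largely the same summits, so they are not independent. Differences were -0.667 within 1 kb of a gene boundary (exact permutation p = 0.4), -1.33 in the gene body, within 5 kb and at equal list lengths, and -3.33 within 50 kb. With the block, whose smallest p is 0.25, the value of -2 had p = 0.25 by exact permutation. Of 230 per-gene values under alternatives 4 reversed, but values with a difference of 0 in full lists, such as those of Fzd1, Fzd3, Fzd6 and Fzd10, could not. The percentile difference at Fzd7 was -1.97 in full lists and 1.59 at equal list lengths. At Fzd5, which rests on 1 summit per group, it was -0.757 in full lists and ran from -11.4 to 10.6 with 1 library left out. It reversed to 4.57 without PT replicate 1 or 2 and to 10.6 without EL replicate 2. Depth and input signal are unknown, so an unlisted position is not an unbound one.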
